A study of Homo sapiens with 50 samples.

Results

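Bystander cells of the parental H1299 line, 10 arrays, were compared with 5 arrays of sham-irradiated H1299 cells, which makes 15 of the 50 arrays of the series. The arrays were chosen by their sample labels alone, as bystander positive (BP, n = 5), bystander negative (BN, n = 5) and control (CTL, n = 5), and BP and BN were pooled. H1299 is an established human non-small cell lung carcinoma line, and here it carried no short hairpin RNA. Cells were grown on the paired Mylar sheets of concentric dishes, so that the ions reached the cells of one sheet (directly irradiated) while the cells of the other sheet shared the medium without being hit (bystanders). The dish received 1 Gy of 4He ions at 125 keV/μm, CTL dishes received a sham exposure, and RNA was taken 4 h later. BP dishes were those in which the bystander cells had a raised share of cells with micronuclei, BN dishes were those in which they had not, and DBP and DBN are the directly irradiated cells that correspond to them. The dishes of each group were therefore selected by a measured damage response, and a group is not a random sample of dishes. The question was whether unhit cells that shared medium with irradiated cells had a transcriptional response at this time. The rest of the series holds the directly irradiated H1299 cells and the same 5 groups of H1299*shRAD9*, a line with a stable short hairpin RNA against *RAD9*.

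Bystander responses are those of cells that were not traversed by radiation but received signals from cells that were. Signals pass through the medium as cytokines, prostaglandins, reactive oxygen species and TGF-β, and through gap junctions where cells touch. In other cells they are known to act through NF-κB, MAP kinases and the cyclooxygenase COX-2 (*PTGS2*), with immediate early genes such as *EGR1* and *FOS* among the first to be transcribed.

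RNA was measured on one-color Agilent arrays with 34127 probes besides controls, and values are log2 of the processed intensity minus the median of the array. The share of probes well above background ran from 59.7% to 70.8% over the 15 arrays, the median intensity ran from 97.1 to 514, and between 1 and 99 probes were saturated. Precision is limited by the number of arrays. The markers of the line were present: *VIM* lay between 10.38 and 11.78 and *KRT18* between 9.91 and 10.75, while the epithelial marker *EPCAM*, the endothelial marker *PECAM1*, the fibroblast marker *COL3A1* and the alveolar marker *SFTPB* were well above background on at most 3 of the 15 arrays. The endothelial marker *VWF* (−2.39 to −1.28), the immune markers *PTPRC* (−1.11 to 0.42) and *CD14* (−1.33 to −0.25) and the alveolar marker *SFTPC* (−1.52 to −0.57) were marked above background on all 15 arrays at levels near or below the array median, and the fibroblast marker *COL1A1* on 4 CTL and 2 bystander arrays. The 15 arrays lay on 7 slides, 4 of which held both control and bystander arrays, and on 3 scan days.

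Among the 15 arrays, 5 stood apart by the genes of the integrated stress response, the program in which the factor ATF4 turns on amino acid synthesis and transport genes. The mean level of the 44 measured genes of this list, each centered over the 15 arrays, was 0.94 on CTL 1, 1.05 on CTL 2, 1.32 on BP 2, 1.13 on BN 1 and 1.31 on BN 2, and between −0.70 and −0.45 on the other 10. *NUPR1*, a stress-induced chromatin protein, read 5.07, 5.08, 1.55, 1.55 and 1.41 on CTL 1 to 5, then 1.43, 5.74, 1.299, 1.31 and 1.12 on BP 1 to 5, then 5.67, 5.53, 1.55, 1.32 and 1.15 on BN 1 to 5. Arrays of numbers 1 and 2 were high in every group except BP 1, and both the control and the bystander groups held high arrays. The same 5 arrays were highest for *CHAC1*, which degrades glutathione (5.84 to 7.02 against 2.35 to 3.22 on the others), and for *ASNS*, asparagine synthetase (10.28 to 11.13 against 7.59 to 8.20). What set these arrays apart was not tested. The comparison with CTL was therefore also made on numbers 3 to 5 alone and with this list mean as a covariate, and 0 features were called in each, with 419 and 474 features at an unadjusted p under 0.05.

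**Figure D1:**
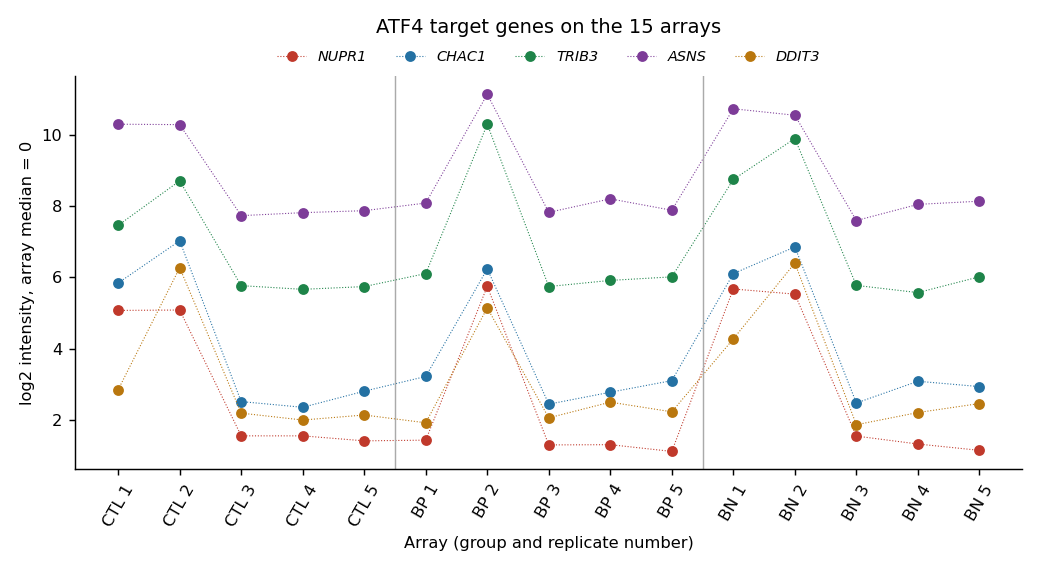
Levels of integrated stress response genes (y axis, log2 relative to the array median) on each of the 15 arrays (x axis). CTL 1, CTL 2, BP 2, BN 1 and BN 2 lie high, as for *NUPR1* at 5.07 to 5.74 against 1.12 to 1.55 on the other 10.

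The promoters of 3 of these genes are shown as the genes of the list with a match to the ATF4 site whose levels ranged most over the 15 arrays, by 4.67, 3.54 and 3.54. They are the 250 bases before the RefSeq start of each gene on GRCh38.p14, with matches to the composite site of ATF4 and C/EBP (TGATGNAA, on either strand) in capitals. *CHAC1* lies at chr15:40953221-40953470 on the plus strand, *ATF3* at chr1:212565157-212565406 on the plus strand and *ASNS* at chr7:97872409-97872658 on the minus strand.
CHAC1: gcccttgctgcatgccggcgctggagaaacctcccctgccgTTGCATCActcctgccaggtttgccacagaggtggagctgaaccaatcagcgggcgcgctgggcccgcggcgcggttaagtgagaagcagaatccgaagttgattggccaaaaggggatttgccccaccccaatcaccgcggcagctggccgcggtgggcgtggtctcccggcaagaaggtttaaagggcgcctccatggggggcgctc
ATF3: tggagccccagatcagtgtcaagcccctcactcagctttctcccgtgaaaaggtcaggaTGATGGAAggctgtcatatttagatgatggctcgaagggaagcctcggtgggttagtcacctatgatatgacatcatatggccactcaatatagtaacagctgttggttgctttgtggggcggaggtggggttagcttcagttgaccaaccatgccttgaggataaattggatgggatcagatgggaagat
ASNS: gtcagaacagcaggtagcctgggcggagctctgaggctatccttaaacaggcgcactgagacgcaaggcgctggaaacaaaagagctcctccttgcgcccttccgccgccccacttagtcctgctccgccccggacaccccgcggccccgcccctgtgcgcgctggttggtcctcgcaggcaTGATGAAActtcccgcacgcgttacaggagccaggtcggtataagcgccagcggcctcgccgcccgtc
Each held 1 match, which in *CHAC1* reads on the opposite strand. Of the 44 list genes, 37 had a promoter in the RefSeq table and 4 of these (10.8%) held the letters, against 3.14% of all 35116 promoters of this length. A match is a description and not a binding site.

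No gene was called as differentially expressed between pooled bystanders and CTL. With calls made below a p of 0.006 and a 10% false discovery rate (FDR), 0 of 12131 features were called (0%), and the smallest FDR in limma was 0.501. At an unadjusted p under 0.05 there were 358 features (2.95% of those tested), 129 higher in bystanders (1.06%) and 229 lower (1.89%), and 22 (0.181%) were below 0.006. The median difference over all features was −0.03 on the log2 scale, with quartiles of −0.14 and 0.09. The 95% interval of the difference lay within 2-fold in either direction for 11595 features (95.6%) and within 1.5-fold for 8581 (70.7%), and 33 features had an estimate beyond 2-fold. Among the 20079 features above background, without the requirement that a feature vary over the arrays, 0 were called again (0%), with 192 higher (0.956%) and 425 lower (2.12%) at an unadjusted p under 0.05.

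**Figure D2:**
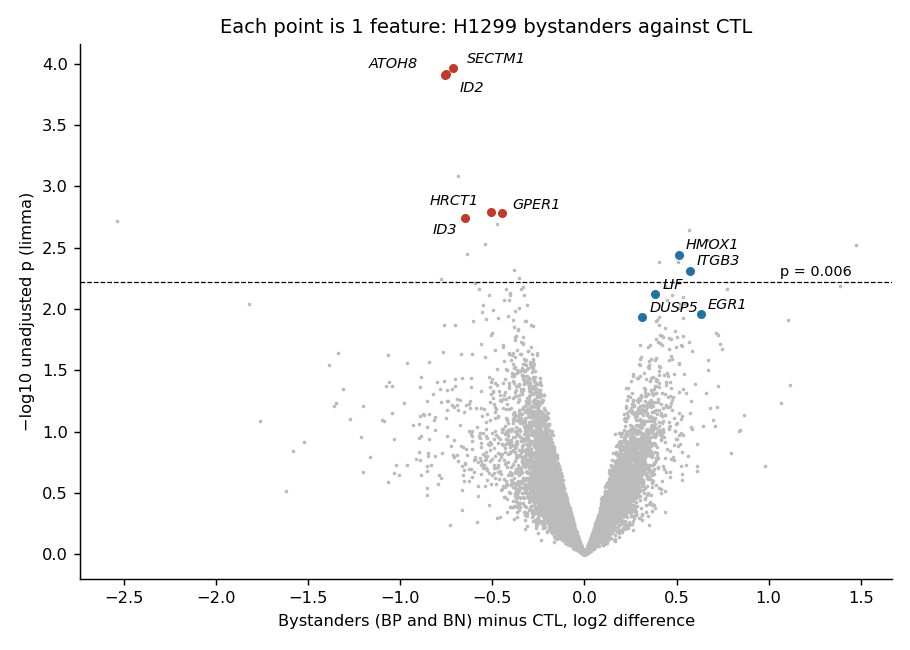
Difference of 10 bystander arrays minus 5 CTL arrays (x axis, log2) against −log10 of the unadjusted limma p (y axis), 1 point for each of 12131 features. Only some of the genes of smallest p are named. On the higher side *OR6M1*, *LINC02579*, *KISS1* and *RGS16* are not named, although *DUSP5*, with a larger p, is. No feature reached an FDR below 0.501, and 33 features lie beyond 2-fold.

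Levels of bystander and control arrays almost always overlapped. All 10 bystander arrays were below all 5 CTL arrays for 1 feature (0.00824% of those tested) and above them for 0 (0%). The feature was of *AK9*, a nucleoside monophosphate kinase, named here after its values were seen, at −0.41 (95% interval −0.69 to −0.12, FDR 0.966). Set against the CTL array of the same number, all 10 bystander arrays were higher for 23 features (0.191%) and lower for 75 (0.622%). The genes of smallest p in each direction, 12 each, are described next, and none of them passed the test.

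The genes of smallest p on the lower side included inhibitors of differentiation, the ID proteins, which bind basic helix-loop-helix factors and are direct targets of BMP signaling in many cells. *ID2* (probe at chromosome 2, 8822642 to 8823030, hg19) read 2.83, 2.29, 2.81, 1.97 and 2.40 on CTL 1 to 5, then 1.68, 1.61, 1.73, 1.36 and 1.68 on BP, and 1.65, 1.63, 2.26, 1.90 and 1.57 on BN. Each bystander array was below the CTL array of its number, and only BN 3 lay within the range of the CTL arrays. The difference was −0.75 (95% interval −1.06 to −0.45, FDR 0.501 in limma), and a further *ID2* probe had −0.68 (−1.03 to −0.34, FDR 0.966).

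*ID3* read 4.84, 4.42, 4.06, 3.85 and 4.28 on CTL, 3.66, 3.10, 3.33, 3.29 and 3.83 on BP, and 3.91, 3.69, 3.69, 3.99 and 3.92 on BN. BN 4 was above its own CTL array and the other 9 were below. Its difference was −0.65 (−1.01 to −0.29, FDR 0.966). *ID1*, of the same family, differed by −0.33 (−0.66 to −0.01, FDR 0.966), with 8 of 10 arrays below their own CTL array. *SMAD6*, an inhibitor of BMP receptors that is itself a BMP target, was picked out after its values were seen. Its levels were 0.02, −0.18, −0.88, −1.01 and −0.75 on CTL, −2.51, −0.55, −1.22, −1.77 and −1.96 on BP, and −0.59, −0.20, −1.12, −1.49 and −1.80 on BN. All 10 were below the CTL array of the same number while the ranges of the groups overlapped, and the difference was −0.76 (−1.34 to −0.19, FDR 0.966), or −0.24 with normexp.

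*ATOH8*, a basic helix-loop-helix factor, read 1.24, 1.19, 0.66, 0.71 and 0.92 on CTL, 0.54, 0.28, −0.58, −0.12 and 0.58 on BP, and 0.13, 0.72, −0.15, 0.30 and 0.20 on BN. Only BN 2 reached into the CTL range, and all 10 were below their own CTL array. The difference was −0.76 (−1.06 to −0.45, FDR 0.501). *SECTM1*, a secreted and membrane protein that binds CD7, read 1.00, 0.30, 0.70, 0.48 and 0.44 on CTL, −0.20, 0.10, 0.01, −0.08 and −0.26 on BP, and −0.11, −0.25, 0.32, −0.46 and −0.37 on BN. BN 3 alone lay in the CTL range, and the difference was −0.71 (−0.9996 to −0.43, FDR 0.501).

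The other 8 genes of this side all had an FDR of 0.966. They were *GPER1*, a G protein-coupled estrogen receptor, at −0.45, *PLXND1*, a semaphorin receptor, at −0.38, *VASN*, which binds TGF-β, at −0.34, *HRCT1* at −0.51, *GASK1B* at −0.59, the small Cajal body RNA *SCARNA16* at −0.64, *ANKRD20A9P* at −0.78 and *LOC283387* at −0.57. Further probes of *GPER1* had smaller differences, at −0.29, −0.38 and −0.09. Of the 4 slides that held both controls and bystanders, 11 of these 12 genes had the lower bystander mean on 4 of 4, and *SCARNA16* on 3 of 4. The genes were picked by p on these same arrays, so this count is not independent support. Its share over all features was not computed. The within-slide differences of *ID2* ran from −1.15 to −0.15, and those of *ATOH8* from −0.86 to −0.69.

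**Figure D3:**
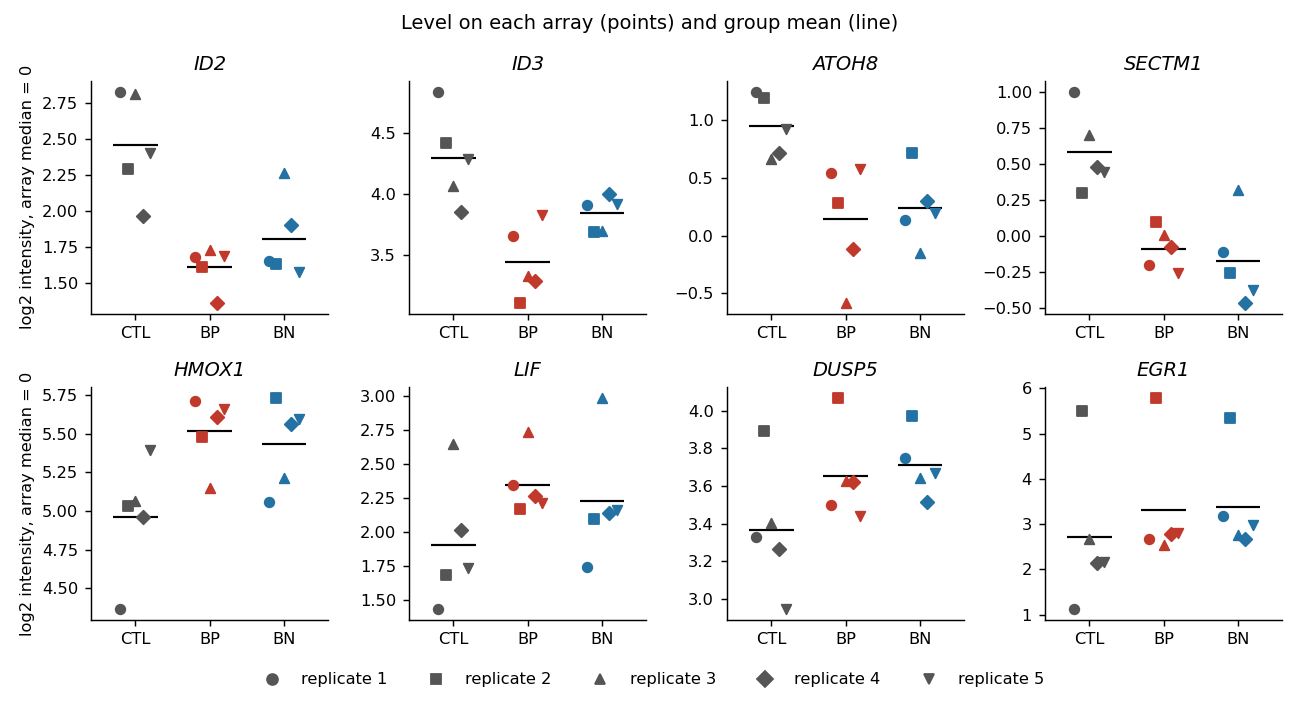
Level of single genes (y axis, log2 relative to the array median) on each of the 15 arrays, by group (CTL, BP, BN), with points for arrays, their shape giving the replicate number, and lines for group means. *ID2*, *ID3*, *ATOH8* and *SECTM1* lie lower on most bystander arrays and *HMOX1*, *LIF*, *DUSP5* and *EGR1* higher, with overlapping groups in each.

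The genes of smallest p on the higher side included an antioxidant enzyme, a cytokine and immediate early genes. These are described first, and the order is not that of p. *HMOX1*, heme oxygenase 1, a target of NRF2, read 4.36, 5.03, 5.06, 4.96 and 5.39 on CTL, 5.71, 5.48, 5.15, 5.61 and 5.66 on BP, and 5.06, 5.73, 5.22, 5.57 and 5.60 on BN. Each bystander array was above the CTL array of its number, by amounts from under 0.1 to more than 1. The difference was 0.51 (95% interval 0.20 to 0.83, FDR 0.966 in limma).

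*LIF*, a cytokine of the interleukin 6 family, read 1.43, 1.68, 2.64, 2.02 and 1.73 on CTL, 2.34, 2.17, 2.74, 2.26 and 2.21 on BP, and 1.74, 2.10, 2.98, 2.14 and 2.16 on BN. CTL 3 was above 8 of the 10 bystander arrays, yet all 10 were above the CTL array of their own number, and the difference was 0.38 (0.12 to 0.65, FDR 0.966). *DUSP5*, a phosphatase of ERK that is induced by ERK signaling, read 3.33, 3.89, 3.40, 3.27 and 2.95 on CTL, 3.50, 4.07, 3.63, 3.62 and 3.44 on BP, and 3.75, 3.97, 3.64, 3.52 and 3.67 on BN. Here too all 10 were above their own CTL array, and the difference was 0.31 (0.08 to 0.54, FDR 0.966), which turned to −0.051 under normexp background correction.

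*EGR1*, a zinc finger factor of the immediate early response, read 1.12, 5.50, 2.66, 2.14 and 2.16 on CTL, 2.67, 5.79, 2.54, 2.78 and 2.80 on BP, and 3.17, 5.33, 2.75, 2.66 and 2.99 on BN. The arrays of number 2 were high in all 3 groups, and 8 of 10 bystander arrays were above their own CTL array. The difference was 0.63 (0.17 to 1.09, FDR 0.966), and it was 0.34 without number 1, whose CTL array was the lowest of the 15, and 0.27 with normexp. The promoter of *EGR1* is shown for the CArG boxes through which serum response factor acts on immediate early genes. It covers the 250 bases before the RefSeq start (GRCh38.p14, chr5:138465229-138465478, plus strand), with CArG boxes in capitals.
EGR1: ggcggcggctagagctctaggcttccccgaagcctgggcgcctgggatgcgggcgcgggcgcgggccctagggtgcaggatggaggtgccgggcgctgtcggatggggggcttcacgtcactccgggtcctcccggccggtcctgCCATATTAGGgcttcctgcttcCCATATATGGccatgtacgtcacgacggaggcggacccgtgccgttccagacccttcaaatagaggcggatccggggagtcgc
It held 2 CArG boxes, and 1.16% of all promoters of this length held at least 1 on either strand.

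The remaining genes of this side were *HBEGF*, a ligand of the EGF receptor (0.39), *RGS16*, which limits G protein signaling (0.41), *ITGB3*, integrin β3 (0.57), *KISS1*, which encodes kisspeptin (0.63), *OR6M1* (0.67), *LINC02579* (0.53) and *KIAA0087* (0.72), all at an FDR of 0.966. A gene of the Y chromosome was the last of this side, and its level is not given. Of the 11 genes given for the higher side, 9 had the higher bystander mean on 4 of 4 slides, and *KISS1* and *RGS16* on 3 of 4. Over 14 alternative settings, 321 values of these 23 genes were obtained, 319 kept the sign and 0 were called. The slides and the settings use the arrays on which the genes were picked, so neither count is independent support. Sizes were less stable, and 14 of the 23 genes moved over 1.5 times in at least 1 setting. *HMOX1* was at 0.32 on numbers 3 to 5 alone and at 0.063 with normexp, *LIF* was at 0.10 with normexp, *ITGB3* was at 0.21 on numbers 3 to 5, and *ID3* was at −0.39 on numbers 3 to 5 and −1.05 with normexp.

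Lists of genes were read from the fit over the 20079 features, 1 feature per gene, so that genes that vary little are included, and 0 genes of any of the 19 lists were called. Secreted signals of the known bystander pathways were mostly not measurable. *PTGS2*, *CXCL8* (interleukin 8), *IL1B* and *TNFSF10* (TRAIL) were well above background on 0 of 15 arrays and *IL6* on 1 bystander array, so that no difference is given for them. Of 32 genes for secreted factors and the enzymes that make them, 14 were measured, 8 with a higher and 6 with a lower mean in bystanders, with a median difference of 0.09 against −0.03 over all features. The direction of this list was not stable, since over those in the main test the median was 0.11, and it was 0.037 without number 2, −0.011 on numbers 3 to 5 and −0.072 with normexp. *LIF* was the 1 gene with an unadjusted p under 0.05 on the higher side and *TGFB2* the 1 on the lower side. *TGFB2* read −0.04, −0.70, −2.13, −1.39 and −1.67 on CTL, −2.46, −1.40, −1.80, −2.05 and −2.53 on BP, and −1.77, −1.26, −2.19, −1.50 and −1.62 on BN. CTL 1 and CTL 2 were above all 10 bystander arrays, the other 3 CTL arrays lay among them, and the difference was −0.67 (−1.24 to −0.11, FDR 0.966), and −0.32 without number 1. *TGFB1* differed by −0.09, with no stable direction (0.12 with slide as the block), and *VEGFA* by −0.01.

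Of the receptors of these signals, 15 of 24 were measured, 0 were below an unadjusted p of 0.05, and the median was −0.02. *GJA1*, connexin 43, the main gap junction protein of many cells, was well above background on 1 CTL and 4 bystander arrays. Of 16 gap junction and pannexin genes, 6 were measured, with a median of 0.03. Of 25 genes for NF-κB subunits, inhibitors and targets, 24 were measured, 11 higher and 13 lower, with a median of −0.02. The NF-κB inhibitor *NFKBIA*, itself an NF-κB target, was at −0.22 (FDR 0.966), and *BIRC3*, an inhibitor of apoptosis, was at 0.30, which turned to −0.091 under normexp.

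Immediate early genes were measured in 31 of 35 cases, 20 higher and 11 lower, with a median of 0.05. An unadjusted p under 0.05 was reached by 4, all on the higher side: *EGR1*, *DUSP5*, *FOSB* (0.31) and *JUN* (0.36). Over all 20079 features, 40% were higher, and 0.956% were higher at that threshold. The interval of *JUN* in this fit ran from 0.003 to 0.71. *FOSB*, an AP-1 subunit, read −1.63, −1.15, −1.40, −1.29 and −1.47 on CTL, −1.26, −0.79, −1.21, −1.46 and −1.07 on BP, and −0.96, −0.56, −0.99, −1.25 and −1.29 on BN. BP 4 was the 1 bystander array below its own CTL array. *FOS*, the partner of *JUN* in AP-1, was at 0.08 and *ATF3* at 0.06. Over the 30 of these genes in the main test the median was 0.05, and −0.29 under normexp, where that of all features was −0.21 and *JUN* was at −0.053.

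Of the TGF-β and BMP list, 27 of 30 genes were measured, 12 higher and 15 lower, with a median of −0.03, the same as over all features. *ID1*, *ID2*, *ID3* and *SMAD6* were the 4 genes below an unadjusted p of 0.05 on the lower side. Of 24 matrix proteolysis genes, 17 were measured with a median of 0.02. *MMP1*, interstitial collagenase, was at 0.53 (0.01 to 1.05, FDR 0.966), from −0.88 to 0.64 on CTL and from −0.66 to 1.54 on bystander arrays, and 0.33 without number 1.

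Among 32 oxidative stress genes, 29 were measured, 15 higher and 14 lower, with a median of 0.00. Besides *HMOX1*, the peroxiredoxin reductase *SRXN1* was at 0.27 with an unadjusted p under 0.05 (−0.14 with normexp), and *GPX4*, a lipid peroxidase, was at −0.27. The integrated stress response list (44 measured of 46, median −0.04) and the chaperones of the endoplasmic reticulum and heat shock (30 of 30, median −0.03) had 0 genes below 0.05. *CHAC1* was at −0.19 (−0.97 to 0.60), *NUPR1* at −0.32 (−1.38 to 0.74) and *DDIT3*, the factor CHOP, at 0.02 (−0.65 to 0.69). Both groups held some of the 5 high arrays described above.

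Target genes of the arrest and apoptosis response to DNA damage were measured in 29 of 29 cases, 9 higher and 20 lower, with a median of −0.08. *CDKN1A*, the inhibitor p21, read −1.75, −1.27, −1.02, −1.19 and −1.42 on CTL, −0.97, −0.93, −0.31, −1.17 and −0.87 on BP, and −1.70, −0.47, −0.32, −1.07 and −1.36 on BN. All 10 bystander arrays were above the CTL array of their number, while BN 1 was below 4 of the 5 CTL arrays. The difference was 0.41 (0.09 to 0.74, FDR 0.966). On the lower side, *POLH*, a polymerase that copies past DNA damage, was at −0.26 with an unadjusted p under 0.05. The probes of *MDM2* disagreed, at −0.22, −0.12 and 0.31, and *GADD45A* was at −0.04. *RAD9A*, which is not targeted in this line, lay between 3.24 and 3.61 on CTL, and differed by −0.19 (−0.43 to 0.05, FDR 0.986). Of 52 genes of DNA damage signaling and repair, 50 were measured, with a median of −0.04 and *OGG1*, the 8-oxoguanine glycosylase, at −0.26 as the 1 gene below 0.05.

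Genes of cell division mostly had slightly lower values in bystanders, and none was called. Of 60 genes of the G2 and M phases, all measured, 3 were higher and 57 lower with a median of −0.11, where 40.0% of all 20079 features were higher, and the 95% interval lay within 1.5-fold for 53. The genes of the list vary together, and the mean of the list was higher than on the CTL array of the same number on 3 of 10 bystander arrays, BP 4, BN 4 and BN 5. Those below an unadjusted p of 0.05 were the 4 genes *MKI67* (−0.36), *PSRC1* (−0.29), *AURKA* (−0.24) and *CCNB1* (−0.24). Over all 20079 features, 2.12% were lower at that threshold. The 95% interval of *CCNB1* reached nearly to 0 (−0.47 to −0.004), and a further *CCNB1* probe was at −0.33 (−0.72 to 0.07). Of 43 S phase genes, 6 were higher and 37 lower with a median of −0.09, and *CDC45*, a helicase subunit, was below 0.05 at −0.24. Over the 41 of these G2 and M genes in the main test the median was −0.12, and it was −0.05 with 75th percentile scaling, where the median of all features was 0.04, and −0.53 with normexp, where that of all features was −0.21. For interferon-stimulated genes (32 of 40 measured) the median was −0.09, for HIF1 targets (27 of 32) −0.00, and for histones (42 of 47) −0.02. Of the genes also assayed by qPCR in irradiated H1299*shRAD9* cells, 7 of 8 were measured, from −0.74 for *SNORA33*, a small nucleolar RNA with an unadjusted p under 0.05, to 0.36. Their median was 0.01, and −0.13 over those in the main test. Of those assayed by qPCR between the lines, 14 of 14 were measured with a median of 0.01. Both qPCR lists had been chosen on these or related samples and are not independent evidence.

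**Figure D4:**
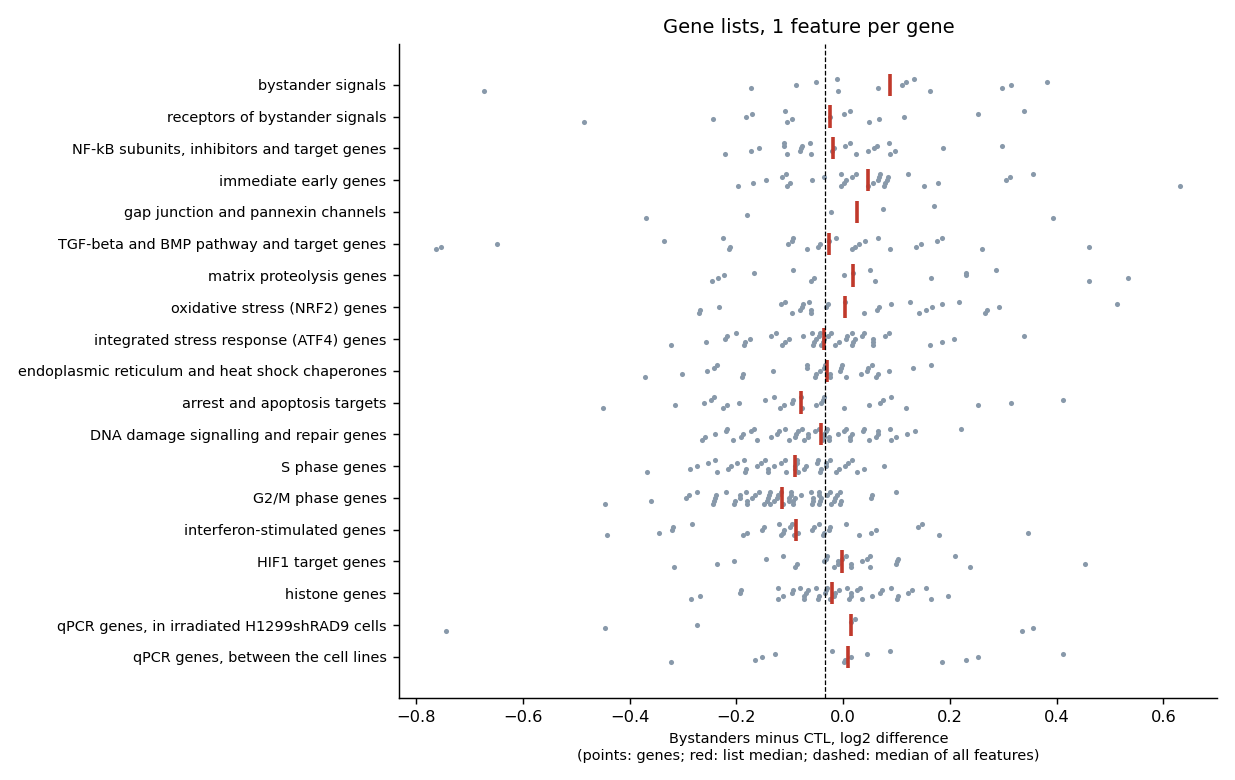
Difference of bystanders minus CTL (x axis, log2) for the measured genes of each of 19 lists (rows), 1 point per gene, with the median of each list marked. Medians lie between −0.11 for the G2 and M phases and 0.09 for the secreted signals, whose direction turns on numbers 3 to 5 and with normexp. The median over all 20079 features above background was −0.03.

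Of 31 genes that were to be given whatever their values, 6 were below the background criterion, and for 18 of the other 25 the 95% interval lay within 2-fold. The lowest FDR among them was 0.966. In an exact 2-sided permutation test that moved the control label among the arrays of each number, 7 of the 31 had an unadjusted p under 0.05, and the lowest was 0.00412 for *HMOX1*, the smallest that the 243 arrangements allow. The 31 include the 6 below the background criterion. This test was run on named genes only, so no share over all features stands beside the count. The genes were chosen with earlier results of these data known, and no response is read from the count.

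BP and BN were then compared with each other, since pooling them assumes that the micronucleus label makes little difference. No feature was called (0% of 12131), the smallest FDR was 0.85, and 608 features (5.01%) had an unadjusted p under 0.05. For *ID2* the difference of BP minus BN was −0.19 (−0.54 to 0.16), for *ATOH8* −0.10 (−0.46 to 0.27), for *SECTM1* 0.09 (−0.25 to 0.43) and for *HMOX1* 0.09 (−0.29 to 0.46). *ID3* was at −0.40, with an interval that excluded 0 (−0.76 to −0.04), but it was not called (FDR 0.85). The intervals of single genes leave room for differences of about the size of those between bystanders and CTL.

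The bystanders were set against the directly irradiated cells, with BP and DBP, and BN and DBN, of the same number taken as 1 dish and used as a block. The labels pair the groups but do not say that a number marks a dish, and *NUPR1* read 1.43 on BP 1 and 6.27 on DBP 1. Here 60 features were called (0.495%), 54 higher in bystanders (0.445%) and 6 lower (0.0495%), with a smallest FDR of 0.00197. The count was 5 without number 4, 18 without number 3, 26 without number 5, 43 without the block and 0 with normexp, so that it depended on which numbers were included and on the background correction. Of the G2 and M phase genes, 20 of the 41 in this test were called, all higher in bystanders, and the median of the 41 was 0.57 against −0.00 over all features. The list includes *PIF1* and *CCNF*, which the study picked for qPCR by their low fold change in directly irradiated H1299*shRAD9* cells. It was chosen with earlier results of these data known, so the count is not independent support.

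*PIF1*, a DNA helicase, lay between 3.47 and 4.95 on the bystander arrays (median 4.00) and between 1.86 and 4.17 on the direct arrays (median 2.68). The difference was 1.41 (SE 0.20, FDR 0.00762 in limma), and CTL arrays lay between 4.21 and 4.72. *AURKA*, a mitotic kinase, lay between 5.89 and 6.59 in bystanders and between 4.73 and 5.64 in direct cells, with a difference of 0.94 (SE 0.12, FDR 0.00441). *BORA*, the activator of that kinase, differed by 1.23 (SE 0.13, FDR 0.00197), *FAM83D* by 1.08, *CENPA*, the centromeric histone, by 1.03, and *PLK1*, the polo-like kinase, by 0.62 (SE 0.10, FDR 0.0254). *CCNF*, cyclin F, differed by 1.39 (SE 0.25, FDR 0.0334), although BP 2 at −2.45 lay far below the other bystander arrays.

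Against CTL, the 54 features higher in bystanders than in direct cells had a median of −0.10, from −0.45 to 0.34. None of the 54 was called against CTL. An unadjusted limma p under 0.05 was reached by 5 of them, all lower in bystanders. Over all features tested, 1.89% were lower at that threshold. The 5 were of *KIF20A* (−0.38), *MKI67* (−0.36), *CKAP2* (−0.29), *PSRC1* (−0.29) and *AURKA* (−0.24). The 6 features lower in bystanders were those of *NR4A1* (−1.34, FDR 0.0345), *NR4A2* (−0.51) and *NR4A3* (−0.55), orphan nuclear receptors of the immediate early response, the NF-κB subunit *RELB* (−0.69, FDR 0.0193), and *PELI3* (−0.50) and *LRRC73* (−0.48). Against CTL the same 6 lay between −0.14 and 0.12.

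**Figure D5:**
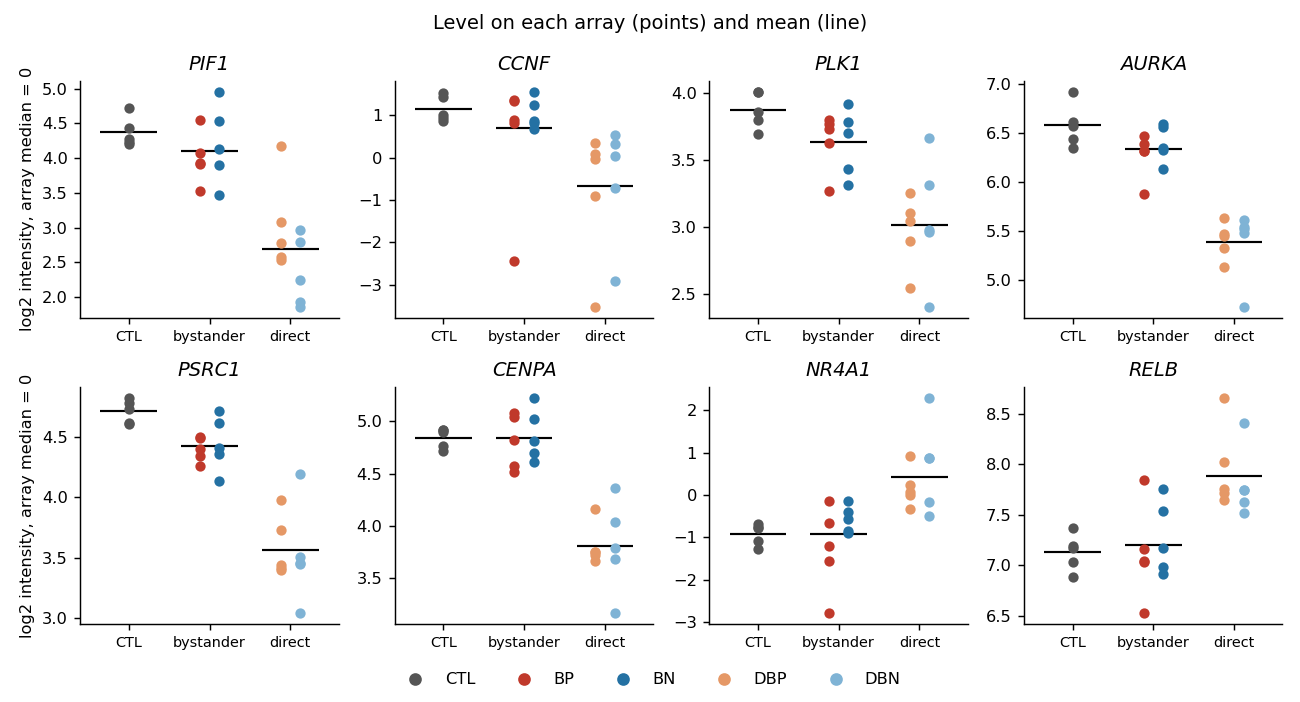
Levels of genes of the G2 and M phases (y axis, log2 relative to the array median) in CTL, bystander and directly irradiated H1299 cells, 1 point per array with group means as lines, with *NR4A1* and *RELB* beside them. For the 6 G2 and M genes the bystander arrays lie above most of the direct arrays, as for *AURKA* at 5.89 to 6.59 against 4.73 to 5.64. Bystanders minus CTL run from −0.45 for *CCNF* to −0.00 for *CENPA*.

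The bystander response of H1299 was compared with that of H1299*shRAD9* in an interaction test over 30 arrays. No feature was called (0%), the smallest FDR was 0.799, and 753 features (6.21%) had an unadjusted p under 0.05. The response of H1299*shRAD9* minus that of H1299 was 0.22 for *ID2*, 0.24 for *ID3*, 0.57 for *ATOH8*, 0.45 for *SECTM1*, 0.49 for *HMOX1* and −0.46 for *LIF*, with FDR values from 0.799 to 0.916. The 2 lines were not shown to differ for any of these genes.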

How the data were processed

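Gene expression was measured on 50 one-color Agilent arrays, 5 per group, of which 15 were used in the main comparison. Per the file headers, the deposited intensity values were produced with Agilent Feature Extraction 11.5.1.1, which subtracted a fitted background and corrected a trend over the array. The authors also deposited log2 values, background corrected and median normalized, and 9476 of those features were used as an alternative.

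The processed intensity was converted to log2 here, and the median of each array was subtracted. Spots of a probe were averaged without outliers. A feature was kept if it was well above background on enough arrays (failing on fewer than 25% of the 50) and varied at least 1.3-fold from its median on at least 20%, which left 20079 features after the first step and 12131 after both. Probes were named by accession (25962), symbol (2078) or older symbol (464), and 5623 were not named. A gene was given by its probe of highest mean signal.

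Groups were compared with limma 3.58.1 in R 4.3.3, with replicate number as a block, because the study's methods compared matched sets, and called at p under 0.006 with a Benjamini-Hochberg FDR under 10% over all features tested. The study describes the samples of a group as independent, and the labels do not say what a shared number marks, so p-values measure the spread between these samples. Directly irradiated cells were compared with the number within BP and DBP, and within BN and DBN, as the block, and cell lines by an interaction. Single genes were compared with exact permutation tests. Genes named were the 12 of smallest p in each direction with all 15 arrays above background, 31 chosen genes, the leading genes of 19 lists, and called features. The members and lists were chosen with earlier results of these data known, so none is independent support. Some items are not reported here. The code was tested on simulated data. The alternatives were scaling to the 75th percentile, normexp (offset 50), quantile normalization, other filters, the authors' values, no replicate block, slide and scan day as blocks, each number left out, numbers 3 to 5 alone and the ATF4 list as a covariate.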

Additional observations from a re-analysis of the deposited data

Results flagged for a closer look

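In 18 of 144 groups of 5 arrays examined, 1 array lay far from the other 4 by Dixon's ratio, a rule that chance alone meets in about 1 of 20 groups. Most of them were arrays of number 2. On BP 2, *CHAC1* was at 6.23, against 2.44 to 3.22 on the other 4, *NUPR1* at 5.74, against 1.12 to 1.43 on the other 4, and *DDIT3* at 5.14, against 1.92 to 2.50 on the other 4. Also on BP 2, *ATF3* was at 4.72, against 2.21 to 2.48 on the other 4, *GADD45A*, a stress-induced growth arrest gene, at 6.61, against 4.91 to 5.30 on the other 4, and *EGR1* at 5.79, against 2.54 to 2.80 on the other 4. On BN 2, *EGR1* was at 5.33, against 2.66 to 3.17 on the other 4, and *GADD45A* at 6.89, against 5.20 to 5.64 on the other 4. On CTL 2, *DDIT3* was at 6.26, against 1.997 to 2.85 on the other 4, and *GASK1B* at −1.31, against −0.164 to 0.264 on the other 4.

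BP 2 also stood apart for *VASN*, at −1.20, against −1.94 to −1.75 on the other 4, for *LOC283387*, at −0.189, against −0.690 to −0.560 on the other 4, for *HBEGF*, at 0.263, against 0.964 to 1.09 on the other 4, and for *CCNF*, at −2.45, against 0.815 to 1.35 on the other 4. This array had the lowest share of probes well above background, at 59.7%, and the lowest median correlation with the other 14 arrays, at 0.950. The part of these values in the single genes was not tested. On BP 3, *HRCT1* was at −0.747, against 0.0991 to 0.344 on the other 4. On CTL 1, *JUN* was at 2.75, against 3.69 to 4.06 on the other 4, and on BN 1 *MDM2* was at 2.89, against 2.13 to 2.28 on the other 4. The median intensity of CTL 3 was 514, against 245 to 294 on the other 4.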

How the results depend on the processing

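The count of 0 called features between bystanders and CTL was obtained under all 34 alternatives, with a smallest FDR between 0.308 and 1 and 173 to 1119 features at an unadjusted p under 0.05, 173 without the replicate block and 1119 with normexp. The share of features higher in bystanders was 42.3%, and 59.3% with 75th percentile scaling, 50.7% with quantile normalization and 32.2% with normexp, which moved the median of all features to −0.21. Under normexp *VASN* turned to 0.11, *DUSP5* to −0.051 and *BIRC3* to −0.091. The cause was not tested. BP minus BN gave 0 under its 12 alternatives.

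For bystanders minus direct cells the count of 60 became 93 with 75th percentile scaling, 91 with quantile normalization and 0 with normexp, and 5 to 63 when a number was left out. The interaction gave 0, and 0 to 1 when a number was left out, the 1 without number 4 (FDR 0.0317). The cause was not tested. Replicate numbers did not pair every array: after removal of group means, same-numbered arrays correlated between −0.20 and 0.42 for BP with CTL and between 0.15 and 0.56 for BN with CTL. The replicate block changed no call in the comparison with CTL. Without the replicate block, 0 features were called there and 43 against direct cells. A dim probe has a bound only, and effects well under 2-fold in noisy genes were not detectable with 5 controls.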
